A study of Homo sapiens with 6 samples.

Results

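The genes described here are 9 genes of retinoid metabolism and retinoid response, RDH10, DHRS9, DHRS3, CRABP2, RARA, RARG, RARRES1, RARRES2 and RARRES3, out of 25442 genes in the expression table. They were chosen by gene symbol, and each matched 1 entry, with 0 repeated and 0 merged names. The list was drawn up with results of the same comparison already known, so the differences between groups given for its members are descriptions and support nothing by their number or size. All 9 passed the filter of a mean of at least 1 FPKM (fragments per kilobase of transcript, scaled to the size of the library, so a level already divided by gene length).

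Retinol (vitamin A) reaches cells bound to a plasma carrier, is taken up and is held by cellular binding proteins or stored as esters. Retinol dehydrogenases oxidize it to retinaldehyde, reductases turn retinaldehyde back into retinol, and retinaldehyde dehydrogenases make retinoic acid. Retinoic acid is carried to nuclear receptors of the RAR family, which pair with RXR partners on DNA and switch genes on or off. In epithelial tissues, retinoic acid is known for its part in differentiation.

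The libraries are RNA-seq of YAPC, a human pancreatic cancer cell line used as a model of the classical subtype of the disease, and the comparison asks how transcript levels differ once the transcription factor GLI2 is induced. All 6 libraries came from YAPC-rtTA cells, which carry a doxycycline (Dox)-dependent activator, and all were exposed to Dox (1 μg/ml) for 6 days in full growth media. In 3 libraries the cells carried human GLI2 with a Flag tag in the inducible retroviral vector pRetroX-Tight-Puro (iGLI2), and in 3 they carried the same vector empty (iEV). The sources used here do not say whether the lines are clones or pools, or whether the replicates were separate cultures, so p-values measure only the spread between these libraries.

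GLI2 itself was listed at 0.466, 0.412 and 0.344 FPKM in iEV and at 94.5, 207 and 195 FPKM in iGLI2, which matches the labels of all 6 libraries. Replicate 1 of iGLI2 therefore held 0.470 times the mean GLI2 level of the other 2. For the retinoid genes, replicate 1 lay outside the range of replicates 2 and 3 in 18 of 18 pairs of member and group, at 0.460 to 1.41 times their mean. Over all genes tested, it did so for 82.4% in iEV, 89.7% in iGLI2 and 75.1% in both. Of 7 epithelial markers, 5 had a mean of at least 1 FPKM (KRT19, KRT7, EPCAM, CDH1 and MUC1), with a summed level of 1914 to 2064 FPKM in iEV and 1731 to 2014 FPKM in iGLI2. Most of that sum is KRT19, KRT7 and EPCAM, and the markers did not move together: MUC1 was lower in iGLI2 (20.4 to 24.1 FPKM in iEV, 3.38 to 3.93 FPKM in iGLI2), and EPCAM and CDH1 were higher (log2 difference 0.37 for each, adjusted p = 0.00709 and 0.0169). KRT8 and KRT18 were listed at 0 in all 6, which was not read as absence. The 7 fibroblast or stellate markers summed to 1.36 to 1.57 FPKM in iEV and 2.31 to 3.03 FPKM in iGLI2, and only COL1A1 among them reached 1 FPKM. The 5 leukocyte markers summed to 4.33 to 5.67 FPKM in iEV and 1.42 to 2.13 FPKM in iGLI2, with only CD14 at 1 FPKM or more. The 4 acinar markers summed to 5.18 to 13.3 FPKM in iEV and 2.71 to 4.40 FPKM in iGLI2. In iEV that acinar sum was PRSS1 alone, and the difference of PRSS1 between groups did not pass (adjusted p = 0.0564). The 4 endothelial markers summed to at most 0.599 FPKM in any library. The part of these markers in the results was not tested.

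Of the 9 genes, 4 were higher in iGLI2 and 2 were lower at an adjusted p under 0.05, where 21.9% of the 12493 genes tested were called in either direction, 10.1% higher and 11.8% lower. RDH10, DHRS9, CRABP2 and RARA were the higher genes, RARRES1 and RARRES2 the lower ones, and DHRS3, RARG and RARRES3 did not pass. The same 6 were the members whose groups did not overlap, a state that 42.0% of all genes tested shared (19.2% higher and 22.8% lower). The median difference over the 9 was 0.30 on the log2(FPKM + 1) scale, beside -0.0146 over all genes tested. With small RNA genes left out and the libraries rescaled, 59.4% of the calls over all genes were higher, instead of 46.0%, and the same 6 members were called. Since these are bulk libraries, fewer cells of a type and less RNA per cell cannot be told apart.

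**Figure D1:**
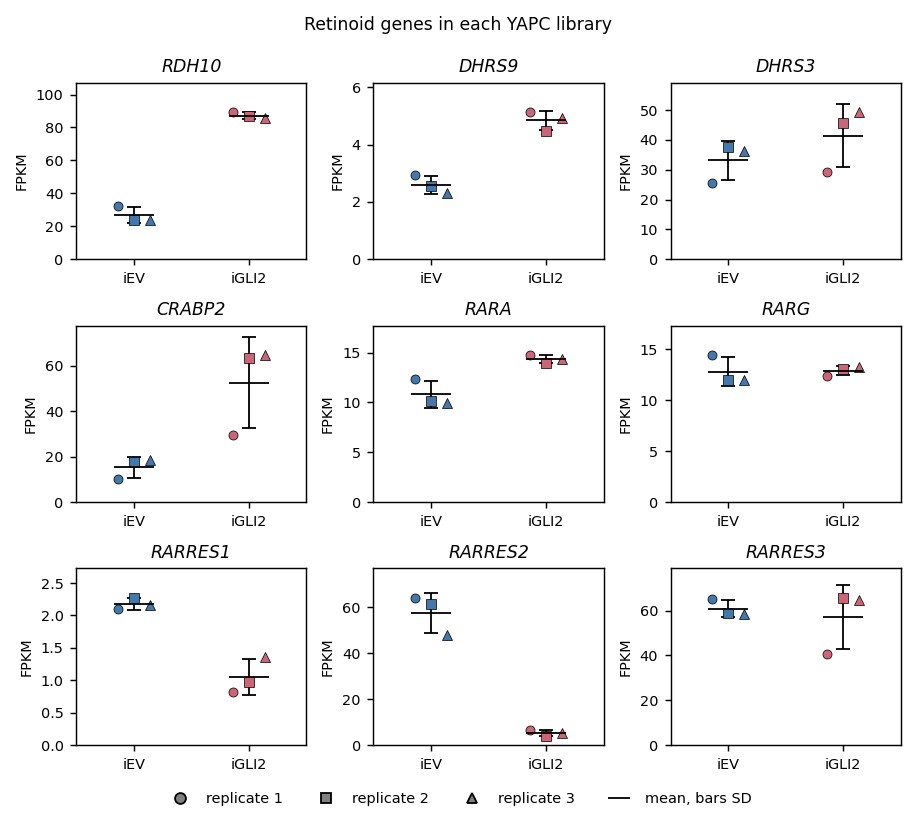
FPKM of the 9 retinoid genes in each library (circle, replicate 1; square, replicate 2; triangle, replicate 3), with iEV in blue, iGLI2 in red, the mean as a line and the SD as bars; each panel has its own axis from 0. The groups are apart for RDH10, DHRS9, CRABP2, RARA, RARRES1 and RARRES2 and overlap for DHRS3, RARG and RARRES3, and within iGLI2, replicate 1 is the lowest of the group for CRABP2, DHRS3, RARG, RARRES1 and RARRES3.

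RDH10 (listed with the values at chr8:74206837-74268696, hg19, plus strand) encodes the retinol dehydrogenase that catalyzes the first oxidation of retinol to retinaldehyde. The annotation used for exons ends the gene at 74237516, before the end of that listed locus. It stood at 32.5, 23.9 and 23.9 FPKM in iEV replicates 1 to 3 and at 89.3, 86.8 and 85.5 FPKM in iGLI2. Every iGLI2 library was above every iEV library, and the iGLI2 values lay within a narrow band. The mean went from 26.8 ± 4.94 to 87.2 ± 1.95 FPKM (SD, n = 3), a ratio of 3.26. The difference was 1.68 on the log2(FPKM + 1) scale (SE 0.127, 95% interval 1.37 to 1.99, adjusted p = 0.000763), which ranked 186 among the increases of the 12493 genes tested, and the call held without each single library. Exons of RDH10-AS1 on the opposite strand overlap those of RDH10, and the library kit does not mark strand, so their reads cannot be told apart. RDH10 was the member whose level after GLI2 induction was highest of the 9.

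DHRS9 (chr2:169923545-169952677, plus strand) encodes another dehydrogenase that can oxidize retinol, and it belongs to the basal-like gene signature used in the study. Its levels were 2.94, 2.56 and 2.31 FPKM in iEV and 5.14, 4.48 and 4.93 FPKM in iGLI2. The groups were apart, and replicate 1 was the highest in both. The mean went from 2.60 ± 0.318 to 4.85 ± 0.334 FPKM, a ratio of 1.86, with a log2 difference of 0.70 (SE 0.0916, 95% interval 0.48 to 0.93, adjusted p = 0.00441). The DHRS9 call also held without each single library. In level, DHRS9 remained far under RDH10: RDH10 FPKM divided by DHRS9 FPKM was 9.34 to 11.0 in iEV and 17.4 to 19.4 in iGLI2.

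The study also measured DHRS9 by quantitative PCR, and the primers show which stretch of the transcript that assay reads. Both lie on GRCh37 within exon 2 of the MANE Select transcript, in coding sequence, and bound a product of 134 bases. The forward primer fits an exon of 8 of 9 annotated transcripts and the reverse primer of 9 of 9, while FPKM here is a value for the whole gene.
DHRS9 forward, chr2:169938134-169938156, plus strand: ctgtggactcgtaaaggaaaact
DHRS9 reverse, chr2:169938246-169938267, minus strand: gcagcgattacatgaaatccct

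Of 8 other genes listed for the oxidation of retinol, 3 were tested, and 0 were higher and 1 was lower. The lower one was ADH1C, an alcohol dehydrogenase that also acts on ethanol and other alcohols. It went from 13.9, 15.6 and 15.5 FPKM in iEV to 7.85, 7.28 and 7.53 FPKM in iGLI2, a log2 difference of -0.90 (SE 0.0671, adjusted p = 0.000739). ADH1C has near relatives in ADH1A and ADH1B, and how reads shared among them were counted is not given in the sources used here. SDR16C5, an epidermal retinol dehydrogenase and a gene of the study's classical signature, had 23.5, 20.8 and 20.7 FPKM in iEV and 22.6, 17.0 and 17.9 FPKM in iGLI2. Its groups overlapped, and its difference of -0.18 did not pass (adjusted p = 0.348). RDH5, also tested and not called, shared a merged entry with BLOC1S1, so that level cannot be assigned to RDH5 alone.

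DHRS3 (chr1:12627939-12677737, minus strand) encodes the enzyme known for the opposite step, the reduction of retinaldehyde to retinol, and is itself a retinoic acid response gene. It had 25.7, 37.5 and 36.3 FPKM in iEV and 29.3, 45.7 and 49.3 FPKM in iGLI2. Replicate 1 was the lowest of each group, and the groups overlapped because iGLI2 replicate 1 fell below iEV replicates 2 and 3. The mean was 33.1 ± 6.50 FPKM in iEV and 41.4 ± 10.6 FPKM in iGLI2, a log2 difference of 0.30 (SE 0.236, 95% interval -0.28 to 0.88, adjusted p = 0.425). With the replicate number as a block, an alternative planned beforehand, the same difference passed (SE 0.0665, adjusted p = 0.0388), in a fit that called 3928 genes. Whether the numbers pair the libraries is undecided, and the sample codes of replicate 3 end in different letters in iEV and iGLI2. Without replicate 1 of both groups, a setting chosen after the data were seen, the difference was 0.36 (SE 0.0503) and passed (adjusted p = 0.0120), in a fit that called 43.8% of all genes tested.

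The balance of the oxidizing RDH10 and the reducing DHRS3 was compared within each library, a ratio also chosen after its values were seen and therefore not tested. RDH10 FPKM divided by DHRS3 FPKM was 1.26, 0.637 and 0.660 in iEV and 3.04, 1.90 and 1.73 in iGLI2. Each iGLI2 library was above each iEV library. The mean ratio was 0.854 ± 0.356 in iEV and 2.23 ± 0.713 in iGLI2, and replicate 1 gave the highest ratio in both groups.

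Of 8 other genes of retinaldehyde reduction, 7 were tested, with 0 higher and 1 lower. Among those not called, RDH14 shared a merged entry with NT5C1B, so that level cannot be assigned to RDH14 alone. AKR1B1, an aldo-keto reductase with many aldehyde substrates, went from 144, 197 and 187 FPKM to 71.0, 113 and 109 FPKM (log2 difference -0.86, SE 0.214, adjusted p = 0.0374). Its call was lost when iEV replicate 2, iEV replicate 3, iGLI2 replicate 2 or iGLI2 replicate 3 was left out, and without the filter on low values (adjusted p = 0.0514). The retinaldehyde dehydrogenases, which make retinoic acid itself, number 4 on the list, and ALDH1A3 alone passed the filter. ALDH1A3 had 5.41, 6.73 and 6.44 FPKM in iEV and 7.08, 8.80 and 9.17 FPKM in iGLI2. Its groups did not overlap, but its difference of 0.38 missed the threshold (SE 0.119, 95% interval 0.09 to 0.67, adjusted p = 0.0729). ALDH1A1 was at 0.352 to 0.636 FPKM and ALDH1A2 at 0.109 to 0.257 FPKM over the 6 libraries.

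**Figure D2:**
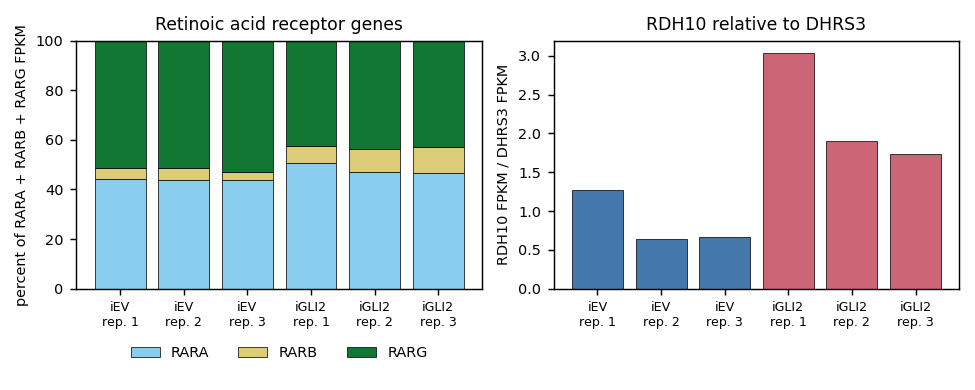
Left, share of RARA, RARB and RARG in their summed FPKM in each library, in percent; right, RDH10 FPKM divided by DHRS3 FPKM in each library, iEV in blue and iGLI2 in red. RARG takes 51.4% to 52.9% of the receptor sum in iEV and 42.6% to 43.8% in iGLI2, and the lowest RDH10 to DHRS3 ratio in iGLI2 (1.73) is above the highest in iEV (1.26).

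CRABP2 (chr1:156669400-156675608, minus strand) encodes a small binding protein that delivers retinoic acid to the RARs and whose own gene retinoic acid can induce. Its levels were 10.1, 17.8 and 18.4 FPKM in iEV and 29.5, 63.6 and 64.8 FPKM in iGLI2. No value of one group reached the other, yet replicate 1 stood well below its partners in both, at 0.560 times their mean in iEV and 0.460 times in iGLI2. The mean went from 15.4 ± 4.60 to 52.6 ± 20.02 FPKM, the highest ratio of the members at 3.42, with a log2 difference of 1.67 (SE 0.369, 95% interval 0.77 to 2.57, adjusted p = 0.0257). The direction held without each single library, but the adjusted p rose to between 0.0673 and 0.0936 without any 1 of iEV replicates 1, 2 and 3 or iGLI2 replicates 2 and 3. FABP5, which carries retinoic acid to another class of receptor, had 108 to 119 FPKM in iEV and 101 to 106 FPKM in iGLI2 and did not pass (log2 difference -0.12, adjusted p = 0.223). CRABP2 divided by FABP5 accordingly ran from 0.0913 to 0.164 in iEV and from 0.292 to 0.625 in iGLI2. CRABP1 had overlapping groups, with 0.676 to 1.80 FPKM in iEV and 1.34 to 3.45 FPKM in iGLI2 (adjusted p = 0.181).

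RARA (chr17:38465423-38513895, plus strand), the gene for retinoic acid receptor alpha, had 12.4, 10.2 and 9.95 FPKM in iEV and 14.8, 14.0 and 14.4 FPKM in iGLI2. The groups were apart, with replicate 1 of iEV nearest to iGLI2. The mean went from 10.8 ± 1.35 to 14.4 ± 0.377 FPKM, a ratio of 1.33, and the log2 difference was 0.38 (SE 0.0910, 95% interval 0.16 to 0.61, adjusted p = 0.0324). This adjusted p was the highest among the 6 members called, and the call held without iEV replicate 1 and was lost without any other single library, at an adjusted p of 0.0568 to 0.125. With the digit in the sample codes as a block, it was lost as well (adjusted p = 0.0551). Exons of RARA-AS1 on the opposite strand overlap those of RARA.

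RARG (chr12:53604350-53626040, minus strand) encodes retinoic acid receptor gamma, a form abundant in epithelia. It had 14.4, 11.95 and 11.98 FPKM in iEV and 12.4, 13.0 and 13.2 FPKM in iGLI2, so the groups overlapped, with replicate 1 the highest of iEV and the lowest of iGLI2. The means were 12.8 ± 1.41 and 12.9 ± 0.427 FPKM, with a log2 difference of 0.01 (SE 0.0856, 95% interval -0.19 to 0.22, adjusted p = 0.922). Its sign turned to negative without iEV replicate 2, iEV replicate 3 or iGLI2 replicate 3.

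RARB, the receptor gene best known as a direct retinoic acid target, is no member but shares the receptor pool. It had 1.24, 1.09 and 0.705 FPKM in iEV and 1.99, 2.68 and 3.32 FPKM in iGLI2, without overlap (log2 difference 0.86, SE 0.174, adjusted p = 0.0197). The RARB call was lost, at an adjusted p of 0.0560 to 0.0704, without any 1 of iEV replicates 2 and 3 and iGLI2 replicates 2 and 3. Within each library, RARG made up 51.4%, 51.5% and 52.9% of the summed FPKM of the 3 RAR genes in iEV and 42.6%, 43.8% and 42.8% in iGLI2. The mean share was 52.0% ± 0.852 in iEV and 43.1% ± 0.677 in iGLI2, a difference of -8.90 percentage points. A two-sided exact permutation test gave p = 0.1, the smallest p that 3 libraries against 3 allow. Any full separation of the groups gives this p, and the genes were listed with results of this comparison known. The test therefore cannot decide whether the share differs, and the shares are given as a description. RARB filled 3.12% to 4.68% of the sum in iEV and 6.82% to 10.7% in iGLI2, and RARA took the rest. RARG was thus the most abundant RAR gene in every iEV library and RARA in every iGLI2 library.

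The RXR genes, whose products are the partners of all RARs, were called higher for RXRA and RXRG. RXRA went from 19.8, 19.3 and 17.6 FPKM to 28.6, 31.1 and 31.1 FPKM (log2 difference 0.65, SE 0.0698, adjusted p = 0.00231), and its call held without each single library. RXRG was low, at 1.63, 0.483 and 0.794 FPKM in iEV and 2.43, 2.58 and 3.24 FPKM in iGLI2 (log2 difference 0.96, adjusted p = 0.0304), and its call was lost without the same libraries, at 0.0824 to 0.108. RXRB had 11.2 to 11.6 FPKM in iEV and 9.55 to 10.8 FPKM in iGLI2 and did not pass (log2 difference -0.15, adjusted p = 0.157). Of 6 receptor co-regulator genes, all tested, 0 were called in either direction.

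RARRES2 (chr7:150035407-150038763, minus strand) encodes chemerin, a secreted attractant of immune cells and adipokine, first found as a gene induced by a synthetic retinoid. It had 64.1, 61.3 and 47.8 FPKM in iEV and 6.67, 4.02 and 5.40 FPKM in iGLI2. The lowest iEV library was several times above the highest iGLI2 library. The mean went from 57.7 ± 8.72 to 5.36 ± 1.32 FPKM, so the level in iEV was 10.8 times that in iGLI2. The log2 difference was -3.22 (SE 0.185, 95% interval -3.67 to -2.76, adjusted p = 0.000351), which ranked 15 among the decreases of the genes tested, and the call held without each single library.

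Chemerin acts through CMKLR1 and GPR1 and binds CCRL2, a receptor that presents it on the cell surface. CCRL2 was lower too, with 17.3, 14.2 and 12.8 FPKM in iEV and 5.28, 3.72 and 4.28 FPKM in iGLI2 (log2 difference -1.54, SE 0.146, adjusted p = 0.00152). CMKLR1 was at or near 0 in all 6 libraries, and GPR1 was at 0.0953 to 0.321 FPKM.

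RARRES1 (chr3:158414897-158450275, minus strand) encodes a membrane protein related to the carboxypeptidase inhibitor latexin. It had 2.09, 2.27 and 2.16 FPKM in iEV and 0.821, 0.974 and 1.36 FPKM in iGLI2. The groups were apart, at levels near the filter. The mean went from 2.17 ± 0.0901 to 1.05 ± 0.276 FPKM, so iEV stood at 2.07 times iGLI2, and the log2 difference was -0.64 (SE 0.118, 95% interval -0.93 to -0.35, adjusted p = 0.0146). It was lost at an adjusted p of 0.0629 without iEV replicate 2, 0.0531 without iEV replicate 3 and 0.0538 without iGLI2 replicate 2. Exons of MFSD1 on the opposite strand overlap those of RARRES1, and without strand their reads cannot be told apart.

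RARRES3 (chr11:63304273-63313930, plus strand), also named PLAAT4, encodes a phospholipase and acyltransferase that is induced by retinoids and by interferon. It had 65.2, 58.8 and 58.5 FPKM in iEV and 40.6, 65.6 and 64.7 FPKM in iGLI2. The groups overlapped, and the single low library was replicate 1 of iGLI2, at 0.623 times the mean of the other 2. The means were 60.8 ± 3.78 and 57.0 ± 14.2 FPKM, with a log2 difference of -0.12 (SE 0.193, 95% interval -0.60 to 0.35, adjusted p = 0.687). Without iGLI2 replicate 1 the difference turned to 0.10 and did not pass (adjusted p = 0.289), and without replicate 1 of both groups it was 0.15 and passed as higher (adjusted p = 0.0198).

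The 3 RARRES genes, named together for retinoid induction, therefore gave 2 lower genes and 1 whose direction depended on 1 library. Of 5 relatives of RARRES1 and RARRES3, 4 were tested. HRASLS2, a relative of RARRES3, was lower, with 2.07, 1.84 and 1.40 FPKM in iEV and 0.708, 0.753 and 1.07 FPKM in iGLI2 (log2 difference -0.58, SE 0.136, adjusted p = 0.0302), a call lost without iEV replicate 1, iEV replicate 2 or iGLI2 replicate 2 (0.0660 to 0.101). Latexin (LXN), the relative of RARRES1, overlapped between groups, with 10.5 to 11.7 FPKM in iEV and 7.85 to 10.6 FPKM in iGLI2.

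Of 9 other genes named for a response to retinoic acid, 4 were tested, and 2 were higher and 1 was lower. TGM2, tissue transglutaminase, which crosslinks proteins and is a classical retinoic acid target, had 115, 141 and 131 FPKM in iEV and 42.7, 51.5 and 51.4 FPKM in iGLI2 (log2 difference -1.39, SE 0.112, adjusted p = 0.000921). RAI14, an actin-associated protein, went from 4.95, 4.50 and 4.99 FPKM to 9.68, 12.7 and 12.3 FPKM (log2 difference 1.11, SE 0.110, adjusted p = 0.00178). RAI1, a chromatin-linked regulator, went from 9.58, 9.35 and 9.13 FPKM to 11.0, 13.2 and 13.1 FPKM (log2 difference 0.37, adjusted p = 0.0271), a call that held only without iGLI2 replicate 1 among the single libraries left out. The called genes of this group did not share a direction.

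**Figure D3:**
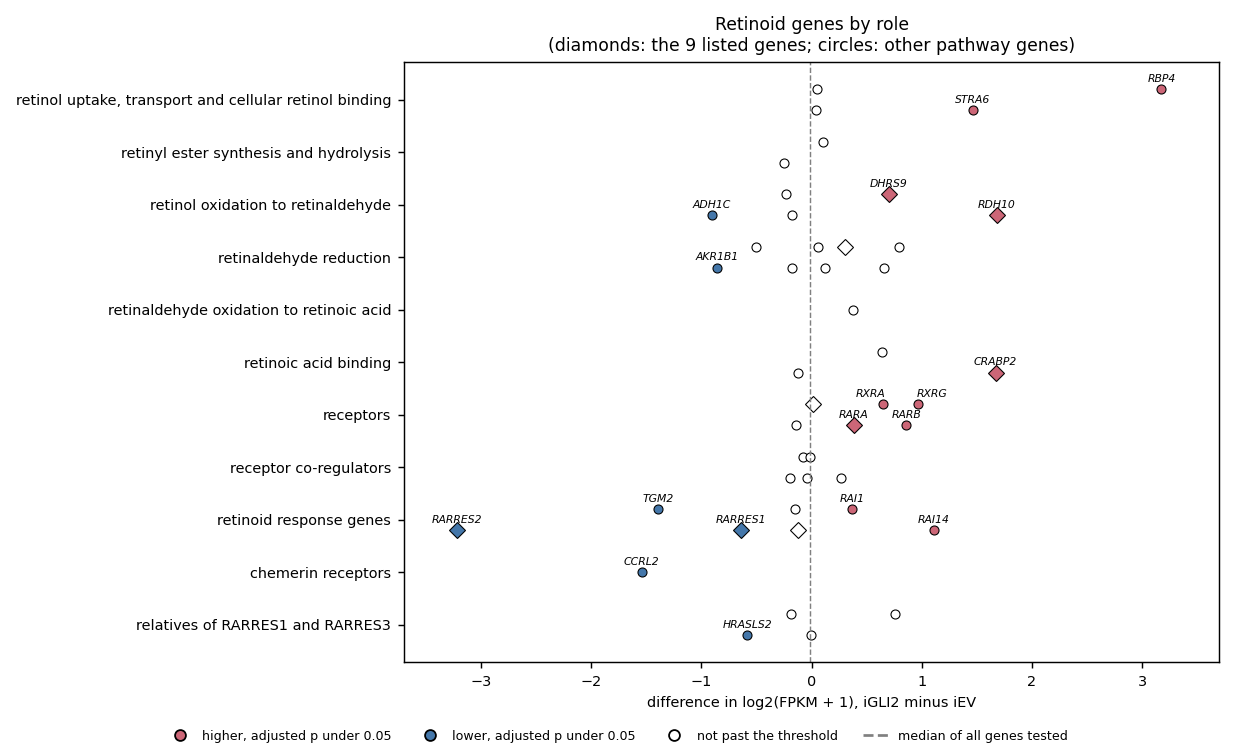
Difference in log2(FPKM + 1) between iGLI2 and iEV for the tested genes of each role that are reported here (diamonds, the 9 listed genes; circles, other pathway genes), filled red where higher and blue where lower at an adjusted p under 0.05, with the median of all genes tested as a dashed line. The uptake and receptor rows hold red points and no blue ones, where 10.1% of all genes tested were called higher and 11.8% lower. RDH10 at 1.68 and CRABP2 at 1.67 are the rightmost diamonds, and RARRES2 at -3.22 is the leftmost.

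Upstream of the enzymes, of 8 listed for uptake, transport and cellular retinol binding, 5 were tested, with 3 higher and 0 lower. Over all genes tested, 10.1% were higher and 11.8% lower, and the count of these few genes is a description. RBP4, the plasma carrier of retinol, had 12.2, 11.4 and 10.9 FPKM in iEV and 73.2, 130 and 146 FPKM in iGLI2. Its mean went from 11.5 ± 0.627 to 116 ± 38.2 FPKM, a ratio of 10.1, with a log2 difference of 3.17 (SE 0.256, adjusted p = 0.000921).

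STRA6, the membrane receptor that takes retinol from RBP4 and another known retinoic acid target, had 0.629, 1.35 and 1.26 FPKM in iEV and 2.28, 6.65 and 6.24 FPKM in iGLI2 (log2 difference 1.46, SE 0.356, adjusted p = 0.0352). As with CRABP2, replicate 1 was the lowest of each group, and the STRA6 call was kept only without iGLI2 replicate 1 among the 6 single libraries left out. Without the filter on low values it missed the threshold narrowly (adjusted p = 0.05005). RBP4 kept its call without each single library.

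Of 5 genes of ester synthesis and hydrolysis, 2 were tested and 0 were called, while the 2 carotenoid cleavage genes and the 3 breakdown genes were below the filter and were not tested. DGAT1, which can also esterify retinol, stood at 130 FPKM in iEV replicate 1 and 112 FPKM in iGLI2 replicate 3 and at 19.0 to 25.1 FPKM in the other 4 libraries. BCO1, which cleaves beta-carotene, had 0.8004 to 1.17 FPKM in iEV and 0.465 to 0.716 FPKM in iGLI2. LRAT, which esterifies retinol for storage, had 0.0614, 0.0930 and 0.151 FPKM in iEV and 0.751, 1.152 and 1.105 FPKM in iGLI2. CYP26A1, which breaks retinoic acid down and is a standard readout of retinoic acid signaling, had 0.0446, 0.120 and 0.0244 FPKM in iEV and 0.271, 0.496 and 0.329 FPKM in iGLI2. For both, every iGLI2 library was above every iEV library, but their mean over the 6 libraries was under 1 FPKM. Without the filter on low values, LRAT (log2 difference 0.86, adjusted p = 0.00327) and CYP26A1 (0.36, adjusted p = 0.0239) were called higher, as were ALDH1A2 (0.12, adjusted p = 0.0374) and CYP26C1 (0.15, adjusted p = 0.0281). CYP26B1 was at 0 to 0.0861 FPKM in iEV and 0.0365 to 0.125 FPKM in iGLI2.

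**Figure D4:**
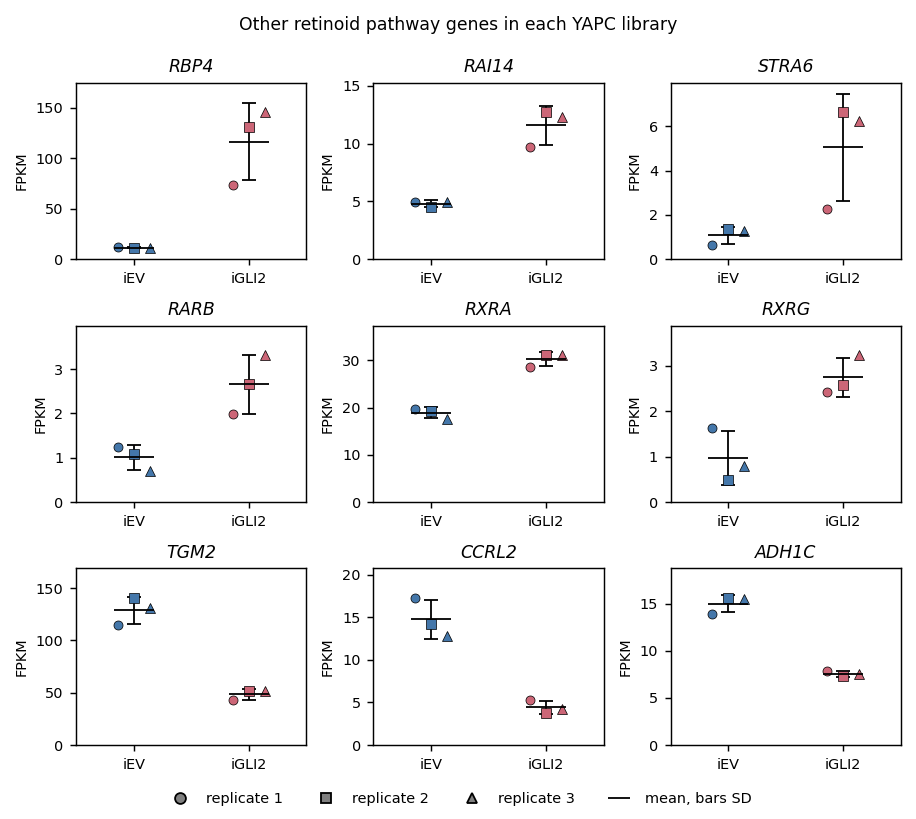
FPKM of 9 other retinoid pathway genes in each library, drawn as for the members with the mean as a line and the SD as bars, each panel with its own axis from 0. RBP4, RAI14, STRA6, RARB, RXRA and RXRG are higher in all 3 iGLI2 libraries than in any iEV library, and TGM2, CCRL2 and ADH1C are lower.

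Over all roles, the 67 other pathway genes left 39 tested, of which 8 were higher and 5 lower. That is 33.3% called, beside 21.9% of all genes tested, and their median log2 difference was -0.0055, beside -0.0146. Of the 13 called, 7 kept their call without each single library and 6 did not. The groups of 23 of the 39 did not overlap, beside 42.0% of all genes tested. These counts are a description, since the list was also written with earlier results of these data known.

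The promoters of 3 genes are shown. RARRES2 and CRABP2 had the largest differences among the 7 members with a promoter, and the RARB promoter is a known retinoic acid target. RefSeq promoters on GRCh38.p14 were used for 7 of the 9 members, all but RDH10 and RARRES3. Each line gives the 250 bases before the start site, and capitals mark, on either strand, the RAR core sequence AGGTCA, its 3 variants (first GGGTCA, then AGTTCA, and last GGTTCA) and the GLI core, which is ACCACCC.
RARRES2, chr7:150341630-150341879, minus strand: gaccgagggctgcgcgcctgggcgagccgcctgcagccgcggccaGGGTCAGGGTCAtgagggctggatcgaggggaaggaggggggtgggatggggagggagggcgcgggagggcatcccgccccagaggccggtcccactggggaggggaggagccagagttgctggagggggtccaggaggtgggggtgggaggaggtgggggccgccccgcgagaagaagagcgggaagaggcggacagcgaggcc
CRABP2, chr1:156705785-156706034, minus strand: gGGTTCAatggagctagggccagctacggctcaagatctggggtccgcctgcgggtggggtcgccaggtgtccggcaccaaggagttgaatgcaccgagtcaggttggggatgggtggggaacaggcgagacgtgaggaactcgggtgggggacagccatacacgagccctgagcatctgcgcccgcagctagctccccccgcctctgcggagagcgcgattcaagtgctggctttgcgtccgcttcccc
RARB, chr3:25428013-25428262, plus strand: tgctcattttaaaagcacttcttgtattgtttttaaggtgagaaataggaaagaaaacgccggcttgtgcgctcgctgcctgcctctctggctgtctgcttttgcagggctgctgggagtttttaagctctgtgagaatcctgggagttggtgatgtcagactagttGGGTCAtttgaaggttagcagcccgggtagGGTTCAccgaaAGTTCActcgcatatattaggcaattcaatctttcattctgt

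In RARRES2, 2 copies of GGGTCA adjoin each other on the gene's strand, from -205 to -194 relative to the start site. A directly adjoining pair of RAR cores in the same orientation was found in 0.159% of 35116 promoters of 300 bases (250 before the start and 50 after). Of the 7 members with a promoter, 1 showed it. Pairs spaced by 1 or 2 bases were searched as well and were present in 0 of the 7. In CRABP2, a single GGTTCA lies from -249 to -244. In RARB, the variant GGTTCA is followed in the same orientation by AGTTCA after 5 bases, from -53 to -37, an arrangement that 0.0883% of the promoters share and that 0 of the 7 members with a promoter showed. RARB has several annotated start sites, and this pair was found only at the start site shown. The FPKM of RARB is a value for the whole gene, so the start site used in these cells is not known.

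At least 1 of the 4 RAR cores was present in 5 of the 7 members (RARRES2, DHRS9, DHRS3, CRABP2 and RARA), counting any annotated start site, beside 43.7% of 27305 genes. DHRS9, DHRS3 and RARA have several start sites, which raises a count by gene. Counted by promoter, a core was present in 6 of 14 promoters of members, beside 38.6% of 35116 promoters. ACCACCC was present in 1 of the 7, at 1 start site of RARA from -54 to -48 on the opposite strand, beside 5.86% of genes. The longer GLI motif GACCACCCA, which contains the shorter one, was found in 0 of the 7, beside 0.297% of genes. The promoters of RBP4, LRAT, STRA6 and RXRA were searched too and are not shown. RBP4, whose difference of 3.17 was larger than that of CRABP2, and LRAT held no marked core in the 250 bases before any start site. STRA6 and RXRA held RAR cores at some start sites. A match is only a match of letters in this window. The name RAR core does not tell which receptor, if any, binds at such a match, and no binding data were used here.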

How the data were processed

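RNA was sequenced from 3 iEV and 3 iGLI2 YAPC samples, grouped by the sample labels. The authors trimmed reads with Trimmomatic, aligned them with tophat2 to hg19 and used Cuffdiff 2.1.1 (version from the submitters' processing notes). The deposited FPKM values come from 1 table with 1 column per library. The header names no unit, and FPKM was inferred from the values, the tools and the loci. The annotation, the scaling and the treatment of multiply mapped reads are not given in the sources used here. Depth is unknown, so no counting interval is given, and 0 columns lacked a sample.

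Of 27024 entries, 1252 outside the primary chromosomes and 330 repeats of a name (the highest mean was kept) were left out. Locus starts were raised by 1 to browser coordinates. Genes whose mean reached 1 FPKM were tested with limma 3.58.1 in R 4.3.3 on log2(FPKM + 1), with an intensity trend, group as the only term, two-sided, and Benjamini-Hochberg adjustment over the 12493 genes tested at a threshold of 0.05. Log2 differences understate the change of low genes. The code was tested on simulated data. The members and the pathway list were chosen with earlier results of these data known. Named genes are the 9 members, 14 core pathway genes, up to 3 called genes with the largest difference in each role and, in a role with none called, the most abundant gene. The values of 2 of these are not reported here. FABP5, CRABP1, CMKLR1, GPR1, LXN and the ratios to DHRS3, DHRS9 and FABP5 were chosen after their values were seen. Exons came from GENCODE lifted to GRCh37, and promoters from RefSeq. Tables and plots were made in Python 3.11.15 with pandas 2.3.3 and matplotlib 3.10.9. Alternatives were another pseudocount, filter, scaling, block or moderation, and leaving out libraries.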

Additional observations from a re-analysis of the deposited data

How the results depend on the processing

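RARRES2, RDH10 and DHRS9 kept their direction and their call under every alternative that tested them, with an adjusted p of at most 0.00469, 0.00745 and 0.0276. With 1 library left out in turn, 1223 to 3753 genes were called over all genes tested, 2 to 3 members were higher and 1 to 2 lower, and 4 to 12 other pathway genes were higher and 3 to 7 lower. RARRES3 ranged from -0.24 to 0.10 with single libraries left out, positive without iGLI2 replicate 1, and was 0.15 without replicate 1 of both groups. RARG ranged from -0.028 to 0.098, negative without iEV replicate 2, iEV replicate 3 or iGLI2 replicate 3. A mean of at least 5 FPKM left RARRES1 and DHRS9 out of the test, so 1 member was lower, and 5 other pathway genes were higher because RARB, RXRG and STRA6 also fell below it.

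Leaving out small RNA genes, which took 45.4% to 48.4% of the FPKM in iEV and 38.9% to 40.4% in iGLI2, and rescaling raised the share of higher calls over all genes from 46.0% to 59.4%, with the same 6 members called. With the digit in the sample codes taken as a block, 5 other pathway genes were higher and 3 lower, and RARA missed the threshold. Without replicate 1 of both groups, added after the data were seen, 5467 genes were called, with 14 other pathway genes higher, and DHRS3 and RARRES3 passed as higher. With the replicate block, 3928 genes were called and 7 members, the 6 and DHRS3 (log2 difference 0.30, adjusted p = 0.0388). With the block and the rescaling together, 4894 genes were called and 14 other pathway genes were higher. Whether the numbers pair the libraries is undecided, and the labels do not say. The sample codes of replicates 1 and 2 end alike in both groups, while those of replicate 3 end in different letters. Deviations of same-numbered libraries correlated at 0.204, 0.0919 and 0.0276. For iEV replicates 1 and 3 the same number was the best match, and iEV replicate 2 correlated best with iGLI2 replicate 3 (0.117). The cause of these changes was not tested.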
